A study of Rattus norvegicus with 9 samples.

Results

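The small RNA profile of rat (Rattus norvegicus) striatum without manganese treatment was described from the 3 corn oil control libraries, of 9 libraries in the series. The members are the libraries whose titles number them as controls 1 to 3, and no library of the 2 manganese-treated groups entered any value. The animals received corn oil, the vehicle alone, by gavage at 1 ml/kg on 6 days of each week over 8 weeks. The study used 18 rats, 8 weeks old, with 3 animals of each sex in each of 3 groups. The sources used here do not give the strain, nor the sex or number of rats that stand behind a library. The 3 libraries form a single group, so their values are described with no test. Each SD (n = 3 throughout) covers library-to-library spread, part of which may be technical.

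The striatum receives the cortical input to the basal ganglia and is made up largely of inhibitory projection neurons with glia, vessels and passing myelinated fibres. A microRNA (miRNA) is cut from a hairpin precursor by Drosha and Dicer. Either arm of the hairpin, named 5p or 3p after its place, can be loaded into an Argonaute protein. The loaded strand finds messenger RNAs mainly through its seed, bases 2 to 8, so miRNAs that share a seed form a family with overlapping targets. Transfer RNAs (tRNAs) carry amino acids to the ribosome, and cleaved tRNAs give fragments in the same size range as miRNAs. An isotype is here a set of tRNA genes with the same amino acid and anticodon.

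The sequences the profile turns on are printed 5′ to 3′ as deposited, with T for U and the seed in capitals. Of the 764 miRNA rows of the count tables, 687 had a RefSeq mature entry of the same name (GRCr8), and 686 of these carried an identical sequence. The miR-29 seed and the let-7 seed belong to the largest families of the profile, and the miR-7 seed follows them after that of miR-9a.
miR-29a-3p: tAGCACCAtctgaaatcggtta
miR-29b-3p: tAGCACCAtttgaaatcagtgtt
miR-29c-3p: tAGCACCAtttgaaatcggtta
let-7f-5p: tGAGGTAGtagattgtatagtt
let-7c-5p: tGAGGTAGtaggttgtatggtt
let-7i-5p: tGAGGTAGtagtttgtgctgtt
miR-7a-5p: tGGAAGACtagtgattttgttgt
miR-7b: tGGAAGACttgtgattttgttgt

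The next miRNAs, each with its own seed, complete the abundant rows.
miR-9a-5p: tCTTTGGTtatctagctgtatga
miR-128-3p: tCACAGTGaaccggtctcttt
miR-101a-3p: tACAGTACtgtgataactgaa
miR-16-5p: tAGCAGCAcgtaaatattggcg
miR-26a-5p: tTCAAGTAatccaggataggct
miR-218a-5p: tTGTGCTTgatctaaccatgt
miR-127-3p: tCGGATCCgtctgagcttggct
miR-30c-5p: tGTAAACAtcctacactctcagc

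A further 6 rows are shown because each is the reverse complement of part of a miRNA above. They pair, in order, with miR-29a-3p, miR-9a-5p, miR-29b-3p, miR-29c-3p, let-7f-5p and miR-218a-5p.
miR-3556a: cGATTTCAgatggtgcta
miR-9b-3p: aTACAGCTagataaccaa
miR-3587: aACACTGAtttcaaatggtgc
miR-3556b: aCCGATTTcaaatggtgcta
miR-3596d: cTATACAAtctactacctca
miR-218b: cATGGTTAgatcaagcacaa

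Total counts were 2012769 in control 1, 1006283 in control 2 and 583045 in control 3, a 3.45-fold range. Levels are CPM, counts per 1000000 of each library's total, so that 1 count was worth 0.497, 0.994 and 1.72 CPM. A row at 0 could have held up to 3 counts, or 1.49, 2.98 and 5.15 CPM, for counting error only. Reads were not calibrated against known amounts of RNA, so an order of levels is an order of counts.

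In the summed level of scarce miRNA rows control 1 was lowest and control 3 highest, with control 2 between. Rows under 5 CPM in control 2 summed to 198, 345 and 964 CPM in controls 1 to 3. Those of 5 to 20 CPM summed to 1247, 3020 and 4914, and those of 20 to 100 CPM to 6234, 8221 and 10143. Although control 1 was the deepest library, 296 of the 764 miRNA rows had more raw counts in control 3 than in control 1. Of these, 285 had a mean under 50 CPM, and the highest was miR-466b-3p at 371.7 CPM. Grouped by their level in control 2, the 124 miRNA rows under 5 CPM had a median log2 difference between control 3 and control 1 of 2.52, after 0.5 counts were added. The 257 rows of 5 to 20 CPM had a median of 2.40, and the 184 rows of 20 to 100 CPM one of 0.89. Above this level the libraries lay close together, at -0.05 for the 125 rows of 100 to 1000 CPM and -0.17 for the 74 rows above. tRNA rows showed the same direction at low levels, with a median of 1.56 in the 67 rows of 20 to 100 CPM, all of them higher in control 3. Among the 195 miRNA rows of at least 100 CPM on average, Spearman's rho across rows was 0.958 for controls 1 and 2, 0.960 for controls 1 and 3, and 0.983 for controls 2 and 3. Rows within a library share its depth and are not independent replicates. The biological coefficient of variation is the spread beyond counting error. It was 0.364 over 1008 entries with all 3 libraries and 0.179 over 972 entries without control 1. Depth and library cannot be told apart here, since each library has its own depth. A mean of a row under 100 CPM therefore covers libraries that lay far apart, and such rows of the marker lists are given by library or by their range.

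**Figure D1:**
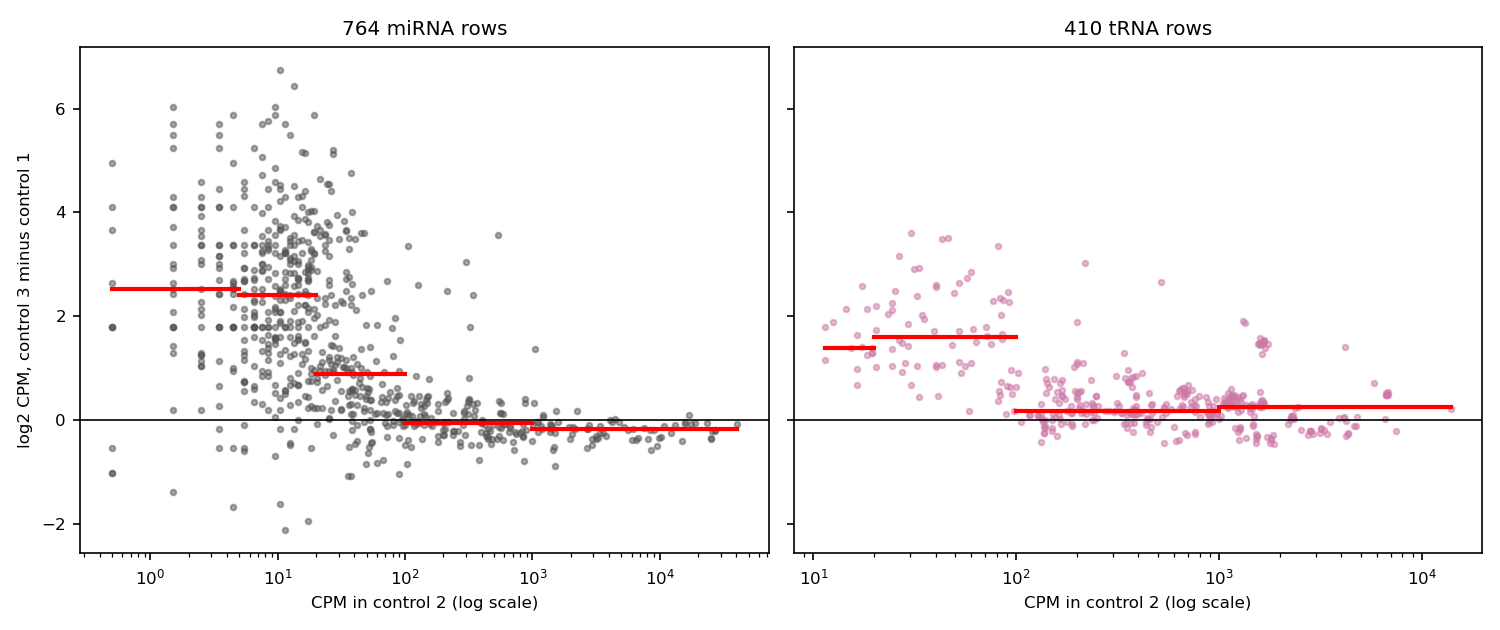
Log2 difference in CPM between control 3 and control 1 (vertical axis) against the CPM in control 2 (log axis), with 0.5 counts added to every value, for 764 miRNA rows (left) and 410 tRNA rows (right). Red lines are medians of rows in ranges of control 2 level; the miRNA medians go from 2.52 at the lowest range to -0.17 at the highest.

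miRNAs known from brain were among the highest rows. The 5 markers given for the tissue were among the 9 highest miRNA rows, with miR-29b-3p first, let-7f-5p second, miR-9a-5p at rank 6, miR-7a-5p at 7 and miR-128-3p at 9. miR-9a and miR-128 are brain-enriched, and miR-7a is known from neurons and endocrine cells. let-7f and miR-29b are also abundant in other tissues. The markers and lists were chosen with earlier results of these data known, so these ranks do not test tissue identity. All 7 members of a neuron list had a mean above 2000 CPM. Besides miR-9a-5p and miR-128-3p these were miR-218a-5p (9607 ± 1060 CPM, the mean and SD, as in the following), miR-153-3p (3922 ± 763), miR-137-3p (3718 ± 456), miR-138-5p (2794 ± 174) and miR-124-3p (2155 ± 158). The neuronal miR-124-3p held rank 50, with 1972, 2248 and 2245 CPM in controls 1 to 3. No list used here tells striatum from other forebrain regions.

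Markers of other cell types were present at lower sums, and their part in the profile was not tested. Vessel miRNAs summed to 17030 ± 1174 CPM, led by miR-143-3p of smooth muscle (7725 ± 435) and miR-126a-3p of endothelium (6773 ± 642), followed by miR-126a-5p (2014 ± 120) and miR-145-5p (519 ± 94.6). Oligodendrocyte miRNAs summed to 4296 ± 582 CPM, with miR-338-3p at 3221 ± 424, miR-219a-2-3p at 543 ± 214 and miR-219a-5p at 531 ± 52.2. Microglial and immune miRNAs summed to 3155 ± 293 CPM. There miR-21-5p (1524 ± 274) and miR-146a-5p (683 ± 109) led, miR-142-3p stood at 468 ± 121, miR-142-5p at 206 ± 32.3, miR-150-5p at 191 ± 25.6 and miR-223-3p at 57.1, 85.5 and 87.5. The inducible miR-155-5p was near the floor at 3.97, 10.9 and 5.15 CPM. The activity-regulated miR-132-3p, miR-134-5p and miR-212-3p summed to 1080 ± 14.5 CPM, the closest agreement of any list's sum. Its members agreed less. From control 1 to control 3 miR-132-3p fell (707, 670 and 635; 671 ± 36.4) while miR-134-5p rose (308, 318 and 403; 343 ± 52.4). miR-212-3p stood at 63.1, 79.5 and 58.3.

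Choroid plexus miRNAs separated the libraries most among the lists above 1000 CPM. Their sum was 423 CPM in control 1, 1976 in control 2 and 1647 in control 3, with 5 of 6 members listed and miR-1264-3p not listed. miR-204-5p stood at 311, 1047 and 799 CPM, miR-1298 at 37.3, 534 and 441, and miR-448-3p at 59.6, 340 and 317. Control 1 was the lowest library for all 5 listed members, which include miR-1912-3p (8.45, 35.8 and 58.3) and miR-211-5p (6.96, 18.9 and 30.9). Control 3 was above control 1 in all 5, and most scarce rows went the same way. How often control 1 was the lowest of the 3 libraries over all rows was not counted. Control 3 was above control 1 in 247 of 257 rows at the control 2 level of miR-211-5p (5 to 20 CPM). At that of miR-1912-3p (20 to 100) it was so in 151 of 184. For miR-448-3p and miR-1298 (100 to 1000) the share was 57 of 125, and for miR-204-5p (above 1000) 9 of 74. In bulk tissue, fewer cells of a type and less RNA per cell cannot be told apart.

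Lists for distant tissues stayed low. Summed over members, blood miRNAs ran from 61.1 to 130 CPM, epithelial miRNAs from 49.2 to 106, muscle miRNAs from 72.5 to 154, Hox-linked miRNAs of hindbrain and spinal cord from 16.4 to 130 and retinal miRNAs from 12.9 to 60.03. In each of these lists control 1 was the lowest library and control 3 the highest, the direction of the scarce rows as a whole. The erythrocyte miR-451-5p stood at 35.3, 33.8 and 70.3 CPM, and the other blood members, miR-144-5p, miR-144-3p and miR-486, ran from 1.49 to 37.7 over the libraries. The epithelial miR-429 was at 35.3, 37.8 and 53.2 CPM, and miR-141-3p, miR-200a-3p, miR-200b-3p and miR-200c-3p ran from 0.497 to 30.9. The skeletal muscle miR-206-3p was at 52.2, 79.5 and 123 CPM, while miR-1-3p, miR-133a-3p and miR-133b-3p ran from 3.97 to 13.7. The Hox-linked miR-196a-5p was at 1.49, 36.8 and 46.3 CPM and miR-10a-5p at 5.96, 19.9 and 44.6, whereas miR-196b-5p, miR-196c-5p and miR-10b-5p stayed between 1.49 and 17.2. In control 1 these 5 rows had 3 to 12 counts each, and miR-196a-5p was below miR-196b-5p there. The sensory miR-183-5p, miR-182 and miR-96-5p ran from 2.98 to 25.7 CPM. The liver list held 648 ± 121 CPM. It did so through miR-192-5p (445 ± 97.7) and miR-194-5p (197 ± 35.8), which are shared with gut and kidney, while the hepatocyte miR-122-5p was at 2.98, 4.97 and 12.01 CPM. The pancreatic and pituitary miR-375-3p was at 3.48 and 10.9 CPM in controls 1 and 2, and at 0 counts in control 3, which allows up to 5.15 CPM, while miR-7b, of the same list and also neuronal, held 3998 ± 511.

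Few miRNAs carried most of the counts. The 14 highest rows held 50% of the miRNA counts in each library, the 10 highest held 41.8% on average and the 20 highest 62.2%. Reaching 90% took 64 rows in control 1, 71 in control 2 and 77 in control 3, and reaching 99% took 208, 294 and 374. By level, 17 rows had a mean of at least 10000 CPM, 73 of at least 1000 and 195 of at least 100. The 230 rows under 10 CPM together held 0.156% of miRNA counts. A count was found for 729, 754 and 751 of the 764 rows in controls 1 to 3. Brought to the depth of control 3, control 1 would show 641 rows and control 2 738, against 751 in control 3 itself, so at equal depth the deepest library showed the fewest rows.

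The row with the highest mean was miR-29b-3p, at 29722, 40612 and 28236 CPM in controls 1 to 3 (32857 ± 6757). let-7f-5p followed at 31147, 25610.1 and 26929 (27895 ± 2892). These values overlapped: let-7f-5p was the higher of the pair in control 1 and the lower in the other two. The miR-29 members are known to repress collagens and other matrix genes and, in maturing neurons, pro-apoptotic genes, and the let-7 members to hold back growth and stem cell programmes. miR-29a-3p stood at 31460.1, 25209.6 and 24484 CPM, and was the first-ranked row of control 1, against miR-29b-3p in the other two. The neuronal miR-9a-5p, a regulator of neural progenitors and differentiation, was at 28267, 27189 and 24667 CPM (26708 ± 1848). The miRNA miR-7a-5p, which among other messages targets that of alpha-synuclein, was at 26023, 23366 and 25229.6 CPM (24873 ± 1364). It outranked let-7c-5p (19687 ± 1797) in all 3 libraries.

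Next came miR-128-3p, known to dampen neuronal excitability, at 20013, 18833 and 19388 CPM (19411 ± 590). Its SD was the smallest among the 10 highest rows, and it stood above let-7c-5p in control 2 and below it in the other two. Further down were let-7i-5p (16899.7 ± 2968), miR-29c-3p (15871 ± 376), miR-101a-3p (15405 ± 1421), the cell cycle regulator miR-16-5p (11880.2 ± 1983), miR-26a-5p (10416 ± 1988), miR-218a-5p, the imprinted miR-127-3p (9554 ± 2181) and miR-30c-5p (9484 ± 1171). The remaining 5 of the 20 highest rows were the antisense rows miR-3556a (27084 ± 3645), miR-9b-3p (26762 ± 1981), miR-3556b (15850.3 ± 279.7), miR-3596d (13384 ± 1479) and miR-3587 (10750.4 ± 2205). Of these 20 rows, 19 were in the highest 20 of every library. Their order was less firm, since only 2 of the 19 neighbouring pairs kept their order in all 3 libraries.

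**Figure D2:**
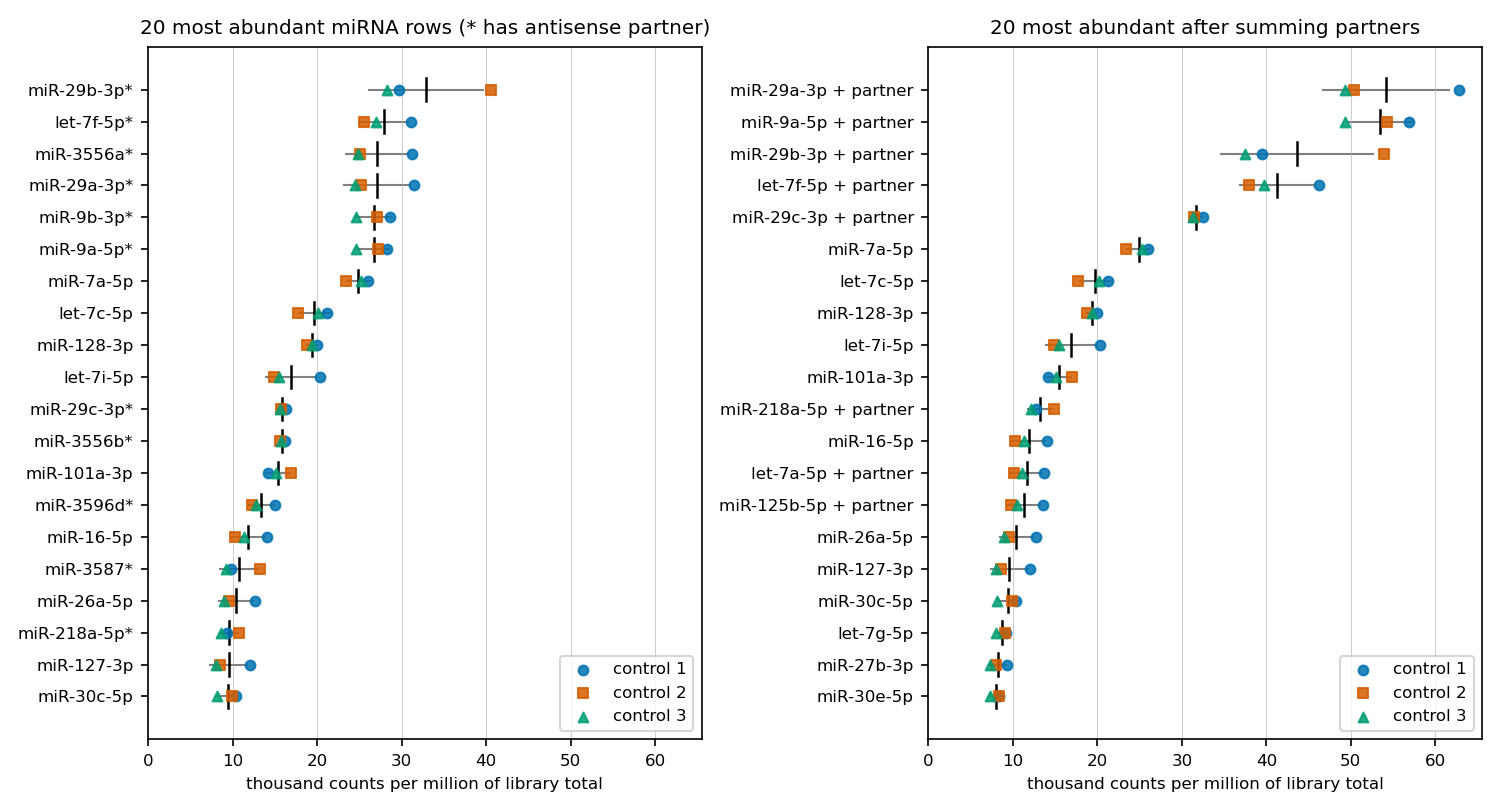
CPM of the library total, divided by 1000, for the 20 highest miRNA rows as deposited (left, an asterisk marks a row with an antisense partner) and after partner rows were summed (right). Points are libraries, vertical ticks means and horizontal lines SDs (n = 3); miR-29a-3p with its partner stands at 62749 CPM in control 1 and at 50339 and 49317 in the other two.

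Much of this ranking consists of pairs of rows that read opposite strands of the same bases. Joining rows of identical sequence, or with a perfect antisense overlap of at least 16 bases, gave 48 sets of 2 to 4 rows. They took in 98 rows and 48.1% of miRNA counts, and 11 of the 20 highest rows. miR-29a-3p took 50.1%, 50.1% and 49.6% of the counts it shared with miR-3556a, each row having 1 hairpin in its deposited hairpin list. miR-9a-5p took 49.7%, 50.1% and 50.02% of those it shared with miR-9b-3p, with 3 hairpins each. Where the hairpin numbers differed the division differed. miR-29b-3p, with 3 hairpins against 1 for miR-3587, took 75.3%, 75.4% and 75.4%, and miR-125b-5p, with 2 against 1 for miR-3588, took 66.8%, 66.4% and 66.0%. Of 20 pairs with at least 1000 counts, 15 had equal hairpin numbers. The share by hairpins lay within the 95% exact binomial interval in all 3 libraries for 16 pairs, in 2 libraries for 2 and in none for 2. The last were let-7f-5p with miR-3596d (67.4%, 67.5% and 67.8%, against 66.7% by hairpins) and miR-218a-5p with miR-218b (73.5%, 72.6% and 71.8%, against 66.7%). The intervals cover counting error only, and how the authors placed a read that fits several rows is not given in the sources used here. The level of a single row in such a pair is therefore uncertain, and the sum of the pair does not depend on the division.

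Summed by set, the order of the profile changed. miR-29a-3p with its partner stood first at 62749, 50339 and 49317 CPM (54135 ± 7477) and miR-9a-5p with its partner second at 56845, 54248 and 49317 (53470.1 ± 3824). In control 3 these sums were equal, at 28754 counts each, and in control 2 miR-9a-5p was higher, so their order was not resolved. miR-29b-3p with its partner followed at 39494, 53887 and 37439.6 CPM (43607 ± 8962), below miR-9a-5p in all 3 libraries, and let-7f-5p at 46217, 37919.8 and 39700.2 (41279 ± 4368). miR-29c-3p with its partner held 32454, 31389.8 and 31320.1 CPM (31721 ± 635), the narrowest spread of the leading 5. Without a partner, miR-7a-5p came sixth. Of the 19 neighbouring pairs among the 20 highest sets, 10 kept their order in all libraries. The 9 highest sets held 50% of the miRNA counts, and the 10 highest 53.7%.

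Family totals depended on the same choice. Summed as deposited, let-7 was the largest seed family, with 9 members and 98948, 80245 and 84604 CPM (87932 ± 9786). Scaled by TMM these were 112565, 78722 and 75808, with control 1 again the highest. The miR-29 family followed with 3 members and 77472, 81583 and 68281 CPM (75779 ± 6811), and was the higher of the pair in control 2 alone. With partner rows summed, miR-29 came first at 134697, 135616 and 118077 CPM (129463 ± 9872), above let-7 at 120227, 97235 and 102613 (106692 ± 12027) in all 3 libraries. Rows such as miR-3556a carry a seed of their own and count as separate families when left unsummed. After summing, the miR-29 family held 21.7% ± 1.11 of miRNA counts, let-7 17.9% ± 1.27, and the 10 largest families together 71.6% ± 0.766 of 591.

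Within the miR-29 family, miR-29a-3p held 41.8% ± 4.73, miR-29b-3p 33.6% ± 5.46 and miR-29c-3p 24.6% ± 1.74. The order of the first 2 was not the same in every library: miR-29b-3p led in control 2 with 39.7% against 37.1%. The make-up of let-7 was steadier than its total. let-7f-5p held 38.4%, 39.0% and 38.7% of it, let-7c-5p 18.5% ± 1.03 and let-7i-5p 15.8% ± 0.979. Next came let-7a-5p with 10.9%, let-7g-5p with 8.26% and let-7b-5p with 4.09%, and miR-98-5p, let-7e-5p and let-7d-5p had under 2% each.

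Below these came miR-9a-5p as the only member of its family, and then the miR-7 family (28871 ± 1829 CPM), in which miR-7a-5p held 86.2% ± 0.970 and miR-7b the rest. The miR-30 family, whose 6 members include the neuronal miR-384-5p, held 28571 ± 3362 CPM. In it miR-30c-5p had 33.2%, miR-30e-5p 28.2% and miR-30a-5p 22.4%. miR-7 was below miR-30 in controls 1 and 2 and above it in control 3. The miR-101 family held 20702 ± 1294 CPM (miR-101a-3p 74.3%, miR-101b-3p 25.7%), miR-128-3p alone 19411 ± 590, and the miR-15/16 family 13670.4 ± 2028, with miR-16-5p at 86.8%, miR-322-5p at 6.69% and miR-15a-5p at 3.75%. miR-26 (13512 ± 2678; miR-26a-5p 77.2%, miR-26b-5p 22.8%) and miR-218a-5p (13229.6 ± 1426) completed the 10 largest. The last 3 overlapped in the range of their libraries.

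**Figure D3:**
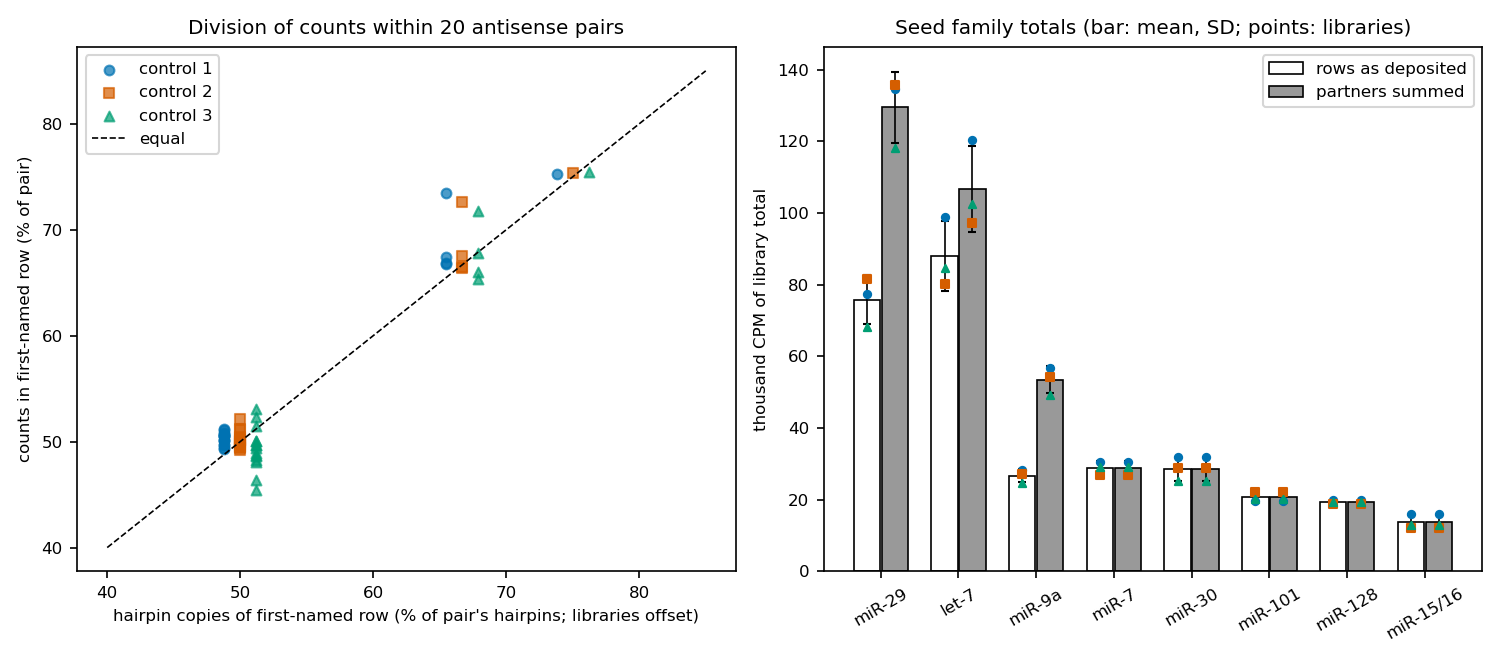
Left, percent of a pair's counts in its first-named row against the percent of the pair's hairpins that belong to it, for 20 antisense pairs in 3 libraries (points offset sideways by library, dashed line equal). Right, seed family totals in CPM divided by 1000 as bars of the mean with SD (n = 3), as deposited (white) and with partner rows summed (grey); miR-29 moves from below let-7 to above it.

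The arms of the hairpins were nearly balanced in total and strongly unbalanced one by one. Of the 764 rows, 309 were named 5p, 318 3p and 137 had no arm in the name. The 5p rows held 55.3%, 51.9% and 54.2% of the counts with a named arm (53.8% ± 1.71), and 54.5% ± 1.53 with partner rows summed. With all rows that have a partner left out, the share was 59.9% ± 1.57. Among 205 hairpins with both arms listed and at least 100 counts after summing, 109 had more 5p counts in all 3 libraries, 79 more 3p counts, and 17 were mixed. The arm with more counts held at least 90% of the hairpin in 63 of the 5p and 40 of the 3p hairpins, and its median share was 90.02%. Only 19 hairpins had between 40% and 60% of counts on the 5p arm.

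Of the 10 hairpins with the most counts, 9 came almost wholly from a single arm. let-7f, let-7i and miR-7a gave 99.8%, 99.7% and 99.5% of their counts from the 5p arm. let-7c gave 99.3% as deposited, and 99.9% when its row let-7c-2-3p, identical in sequence to let-7a-1-3p, was summed with that let-7a row. miR-29a, miR-29b, miR-29c, miR-128 and miR-101a gave 99.9%, 99.8%, 99.8%, 99.9% and 99.9% from the 3p arm. miR-9a was the exception, with 90.9%, 90.9% and 90.5% from the 5p arm. Its 3p arm, with the antisense miR-9b-5p, held 5446 ± 238 CPM, and both arms of miR-9 are known to be functional in neural cells. The hairpins most confined to the 5p arm, among 110 of at least 1000 counts after summing, included miR-16, miR-26a, let-7g and let-7f, each above 99.8%. let-7c also ranked there, through the sum just described. As deposited, let-7f was at 99.78% and miR-125b, at 99.7%, came next. Those most confined to the 3p arm were miR-128, miR-29a, miR-101a, miR-137 and miR-29b after summing.

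After summing, the most even of the 110 hairpins were of moderate level. miR-376b, of an imprinted cluster, gave 59.8%, 58.4% and 58.9% from the 5p arm, with 1727 ± 192 CPM on that arm and 1198 ± 156 on the other. miR-708 gave 54.98%, 58.5% and 52.6%, and miR-185 60.2%, 58.8% and 51.5%. Each of these 3 kept its leading arm in every library. miR-380 (61.9%, 47.3% and 55.7%) and the cartilage-linked miR-140 (33.5%, 50.8% and 36.3%) did not. After summing they were the only mixed hairpins among the 110, of which 61 led with 5p and 47 with 3p. As deposited, miR-380 led with 3p in every library (44.5%, 30.5% and 38.1% from 5p) and had 803 counts. miR-219a was mixed as deposited (37.7%, 59.96% and 52.7%) and led with 3p after summing. miR-434 led with 5p as deposited (57.99%, 54.95% and 58.2%) and with 3p after summing (41.1%, 37.9% and 40.7%).

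The scarcer arm followed the order of the libraries seen for scarce rows. Its median share over the 110 hairpins was 1.49% in control 1, 2.60% in control 2 and 3.69% in control 3. It was lowest in control 1 for 86 hairpins and highest in control 3 for 73. Of the 17 mixed hairpins, 15 had under 1000 counts. The largest spread was that of miR-410, of 215 counts in all, with 13.3%, 42.0% and 64.4% of counts from the 5p arm.

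**Figure D4:**
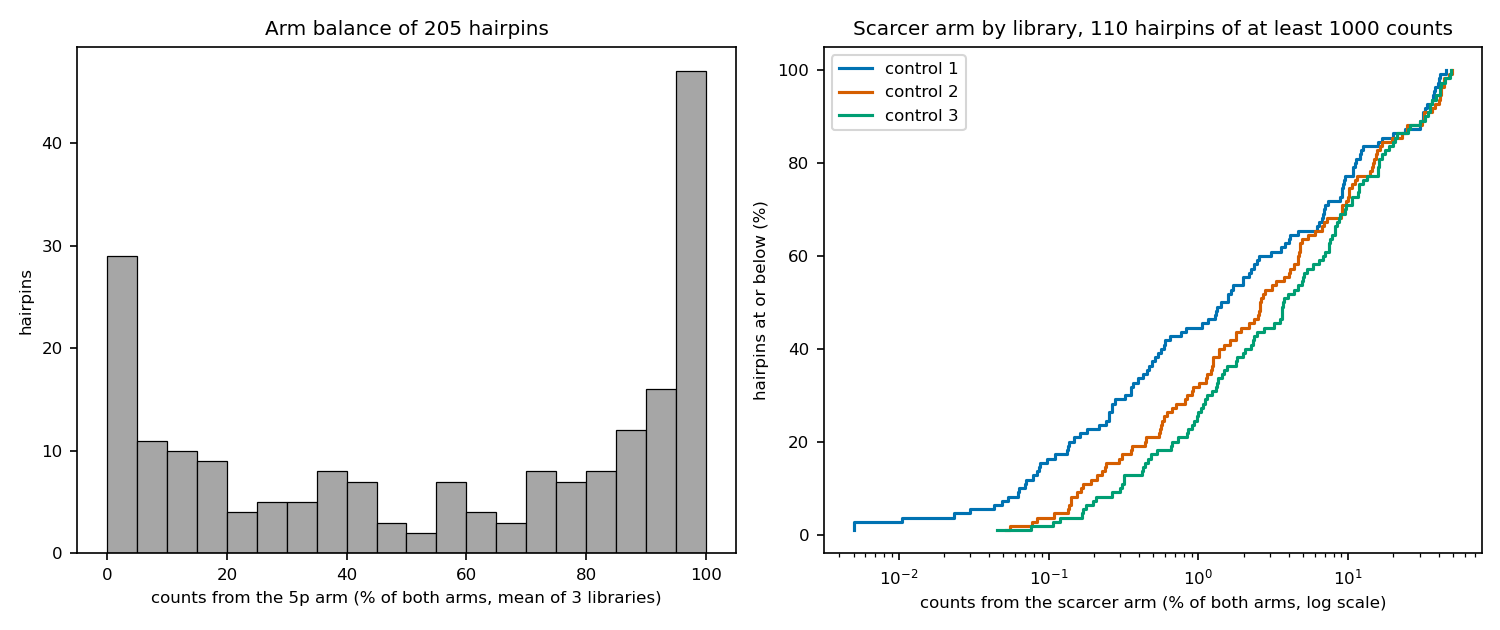
Left, number of hairpins by percent of counts from the 5p arm (mean of 3 libraries, partner rows summed, bars 5 percentage points wide) over 205 hairpins. Right, cumulative percent of 110 hairpins against the share of their scarcer arm (log axis, values at 0 drawn at the left end) in each library; the median shares are 1.49%, 2.60% and 3.69% in controls 1 to 3.

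The leading arms differed from the others in their first base, a feature the counts did not define. Argonaute proteins are known to favour a strand that starts with U, written T here. Over 168 hairpins with 1 row per arm and a leading arm in all libraries, 89 leading arms (53.0%) started with T against 30 scarcer arms (17.9%). The share was 57.7% where the 5p arm led and 46.5% where the 3p arm led. The scarcer arms more often started with A (35.1%) or C (28.6%). Over the 145 of these hairpins in which neither arm had a partner row, the counts were 80 (55.2%) and 27 (18.6%). Weighted by counts the share was larger. Of the 666 miRNA rows with no partner, 250 (37.5%) started with T and held 84.0% ± 1.17 of these rows' counts, while the 81 that started with G held 2.35% ± 0.341. Partner rows have opposite ends, so the share over all rows depends on how they are treated. T-starting rows held 72.6% ± 0.499 of counts as deposited and 89.0% ± 0.723 when each set was given the first base of its first-named row. The 16 miRNAs printed first all start with T, and none of the 6 antisense rows does.

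Hairpins that neighbour each other in the genome contributed a sizeable share of the profile. By neighbourhood in the RefSeq annotation (GRCr8; gaps of at most 10 kb on a strand), 46 clusters held 277 entries placed at 1 site, with 27.3% of miRNA counts. Rows placed at several sites, such as miR-9a-5p, held 41.5% and were left out. Neither miR-29b-3p (43607 ± 8962 CPM with its partner) nor miR-24-3p was counted in a cluster, so shares within clusters cover the counted entries only. The largest cluster joined miR-29a with a miR-29b hairpin (54225 ± 7448 CPM with the antisense row summed, 99.8% of it miR-29a-3p), and the next joined miR-29c with another (31850 ± 636, 99.6% miR-29c-3p). These 2 made up 53.2% of the level of all clusters. The imprinted Dlk1-Dio3 domain, whose miRNAs come from the maternal chromosome and are strong in brain, gave the third. It was a cluster of 31 hairpins at 15984 ± 305 CPM, in which miR-379-5p (4702 ± 195) held 29.4%. A neighbouring cluster of 9 hairpins held 14218 ± 2341 CPM, with miR-127-3p at 67.2% of it. The first was even over the libraries (16244, 15649 and 16059 CPM), while the second was highest in control 1 (16861, 13385 and 12407). The cluster of miR-23b, miR-27b and miR-24-1 held 8891 ± 1064 CPM, of which miR-27b-3p was 92.2%, and that of miR-143 and miR-145 held 8419 ± 508, of which miR-143-3p was 91.8%. Among the counted entries a single member led in the miR-29, miR-27b and miR-143 clusters, whereas no entry held a majority in the cluster of 31.

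The spread between libraries was modest for most miRNAs above 100 CPM and wide for a few. Over the 195 rows the median ratio of the highest to the lowest library was 1.30, with 9 rows above 2 and 7 above 3. miR-1298 had the largest ratio, 14.3, with the values given above. The rodent-specific miR-466 rows came next: miR-466b-3p at 87.9, 298 and 729 CPM (8.29), miR-466c-5p at 28.8, 126 and 177 (6.13) and miR-466b-5p at 56.1, 213 and 314 (5.59). miR-448-3p, of the choroid plexus list, had a ratio of 5.70. In all 5 of these rows control 1 was the lowest library, and how often it was so among the 195 was not counted. The steadiest rows were miR-154-5p (280, 288 and 283 CPM; 1.03), miR-3556b (1.03), miR-3544, the antisense partner of miR-337-5p (1.04), miR-29c-3p (1.05) and miR-185-5p (212, 216 and 206; 1.05). The highest library was control 1 for 101 of the 195 rows, control 2 for 63 and control 3 for 31. These ratios and orders are of CPM of the library total, so the steadiest rows are steady by that scaling. They were not computed by TMM, whose factors were 0.879, 1.019 and 1.116 for controls 1 to 3.

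The tRNA rows are named by gene, with the coordinates their names carry, for which the processing notes name build rn6. The sequences of 4 are shown because they lead an isotype, or vary most, in the results that follow; the anticodon is in capitals and the terminal cca is part of the deposited sequence. Gly-GCC is at chr10:55448610-55448680 on the minus strand, 1 of 7 identical copies that held 79.2% of its isotype. Asp-GTC is at chr10:55364090-55364161 on the plus strand, 1 of 12 identical copies with 82.6%. The mitochondrial pair is at chrM:3761-3831 on the minus strand (Gln-TTG) and chrM:2665-2739 on the plus strand (Leu-TAA).
Gly-GCC: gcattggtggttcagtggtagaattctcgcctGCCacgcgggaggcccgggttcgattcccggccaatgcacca
Asp-GTC: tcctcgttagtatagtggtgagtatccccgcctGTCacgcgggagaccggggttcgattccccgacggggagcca
mt-Gln-TTG: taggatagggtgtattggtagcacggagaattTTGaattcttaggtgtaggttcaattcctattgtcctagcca
mt-Leu-TAA: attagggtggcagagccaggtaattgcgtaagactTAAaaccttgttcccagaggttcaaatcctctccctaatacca

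These are whole tRNAs of 74 to 78 bases, while the library preparation took RNA of 15 to 45 nucleotides, so the counts come from fragments. Which part of the tRNA they came from is not given per row. The 410 rows fell into 52 isotypes, counting 2 mitochondrial genes apart and 3 rows with no determined anticodon. There were 248 distinct sequences, and 221 rows had at least 1 identical copy, in 59 sets. Within these sets the counts were divided almost evenly. The even share lay within the 95% exact binomial interval for 627 of 663 values (94.6%). Single copies are therefore not resolved, and isotypes are given as sums.

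Glycine tRNA with anticodon GCC led the isotypes in every library. It held 51729, 59785 and 65522 CPM (59012 ± 6929), summed over 11 gene entries, and its fragments are among the best-known tRNA-derived small RNAs of mammals. The order of the libraries depended on the scaling: scaled by TMM, which allows for differences in composition, the values were 58848, 58651 and 58709.6. The sums of miR-29a-3p and miR-9a-5p with their partners exceeded Gly-GCC in control 1 and lay below it in the other two. Lys-CTT followed with 23777, 25839.6 and 28866 CPM (26161 ± 2559), and Gln-CTG with 23904, 26877 and 22099.5 (24294 ± 2412). Those 2 were not resolved: Gln-CTG was the higher in controls 1 and 2, Lys-CTT in control 3. Asp-GTC came next by its mean but far less even, at 10010.6 CPM in control 1 against 23780 in control 2 and 28564 in control 3 (20785 ± 9632). By TMM the values were 11388, 23328 and 25594. In control 1 it lay below each of the other 9 of the 10 largest isotypes, and in control 3 above Gln-CTG.

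The next isotypes were the mitochondrial Gln-TTG (15436 ± 1847 CPM), Val-CAC (14442 ± 1233), Ser-AGA (14347 ± 461), Ala-AGC (14118 ± 216), Cys-GCA (13433 ± 1574) and Val-AAC (13204 ± 1370). Among the 10 largest, Gly-GCC over Lys-CTT was the only neighbouring pair with the same order in all 3 libraries. The 10 held 55.7% of tRNA counts, and 9 isotypes were enough for 50%. By amino acid, glycine held 70235 ± 10021 CPM, valine 36575 ± 3299, lysine 33269 ± 2063, serine 27859 ± 1076 and glutamine 27180.0 ± 2936 with its mitochondrial gene apart.

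**Figure D5:**
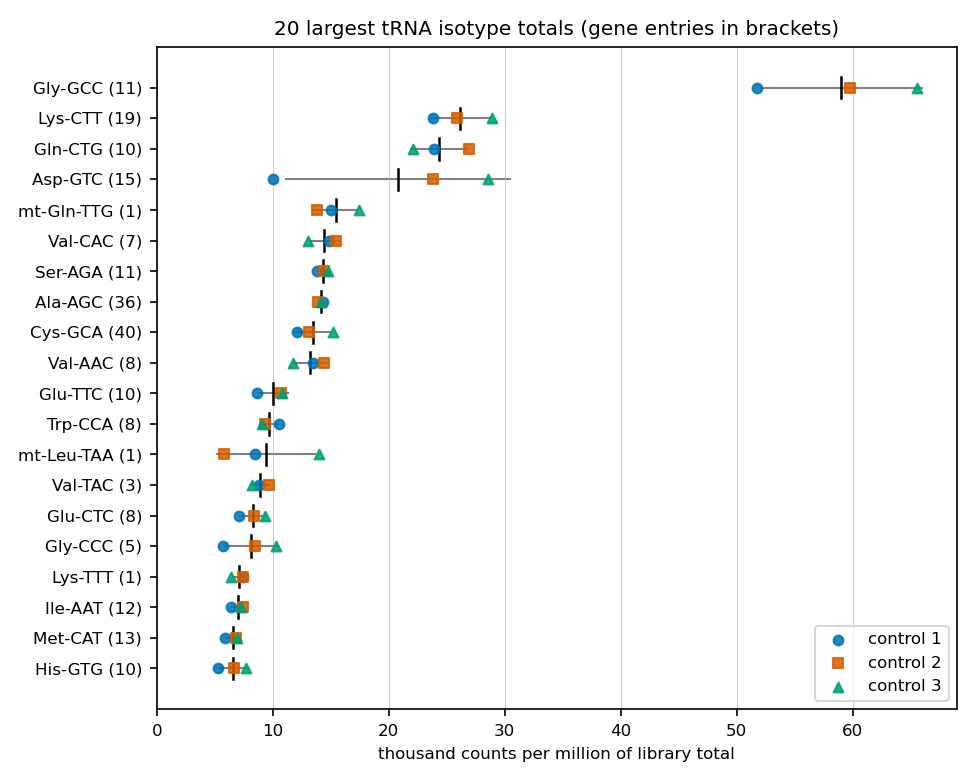
CPM of the library total, divided by 1000, for the 20 largest tRNA isotypes, with the number of gene entries in brackets. Points are libraries, vertical ticks means and horizontal lines SDs (n = 3); Gly-GCC is highest in every library, and Asp-GTC runs from 10010.6 CPM in control 1 to 28564 in control 3.

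The 5 smallest isotypes included anticodons that are rare among vertebrate tRNA genes. Phe-AAA held 8.94, 42.7 and 103 CPM, Asp-ATC 12.4, 75.5 and 151, Ala-GGC 130, 244 and 319, and Ser-ACT 114, 200 and 424. The rows with no determined anticodon held 100.4, 299 and 604. All 5 were lowest in control 1 and highest in control 3, the direction of the scarce tRNA rows.

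Isotype totals and gene numbers were related but not proportional. Over 49 nuclear isotypes with a named anticodon, Spearman's rho between the number of gene entries and the CPM was 0.613, a description over isotypes that share their libraries. Cys-GCA with 40 entries and Ala-AGC with 36 held 336 and 392 CPM per entry, while Gly-GCC held 5365. Lys-TTT (7108 CPM) and Leu-TAG (4954) had 1 entry each, and the 33 entries of Pro-AGG held 93.4 CPM each on average. Levels per entry also depend on how many identical copies share the counts. Gly-GCC had 4 distinct sequences over its 11 entries, Cys-GCA 14 over 40, Ala-AGC 31 over 36 and Pro-AGG 23 over 33.

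Both mitochondrial tRNA genes listed were abundant. Per entry they led all isotypes, but each had 1 entry, while counts of many nuclear isotypes were divided over identical copies. The 7 identical copies of 1 Gly-GCC sequence together held 79.2% of an isotype of 59012 CPM. mt-Gln-TTG held 15017, 13835 and 17457 CPM and mt-Leu-TAA 8514, 5763 and 14021 (9433 ± 4205). The libraries differed by 1.26-fold in the first and 2.43-fold in the second, each being lowest in control 2. Together they made up 6.75%, 4.98% and 7.55% of tRNA counts (6.42% ± 1.32). This share covers the 2 listed genes alone, and no other mitochondrial tRNA could be counted. Against this, by CPM of the library total Ala-AGC was the steadiest of the 52 isotypes, at 14306, 13882 and 14165 CPM, a ratio of 1.03. Such a rank can depend on the scaling. By TMM the SD of Gly-GCC went from 6929 to 101.3 CPM, and Ala-AGC was not rescaled.

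By class, miRNA rows held 63.4%, 59.0% and 56.5% of the counts in controls 1 to 3 and tRNA rows 34.9%, 39.4% and 41.7%. The order of the libraries by miRNA share was thus their order by depth, and that by tRNA share its reverse. The piRNA rows, named for the germline silencing pathway, held 1.69%, 1.56% and 1.80%. Of these counts 88.1% ± 2.74 fell on the 90 piRNA rows whose sequence shares 16 bases or more with a tRNA row, so they cannot be told from tRNA fragments.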

How the data were processed

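The authors deposited raw counts, whole numbers for 1759 entries per library (764 miRNAs, 410 tRNA genes and 585 piRNAs), each with its sequence and precursor names. Per the labels' protocols, TRIzol RNA was size-selected on a gel (15 to 45 nucleotides) and ligated to QIAseq miRNA adapters. Per the submitters' processing notes, Trimmomatic (no version named) and build rn6 were used. The sources used here do not give the aligner, mismatches, strand, placement of multi-mapping reads or handling of molecular barcodes, so binomial intervals cover counting error only.

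Groups and replicate numbers came from the sample titles. Total counts ran from 583045 to 2012769, which sets the value of 1 count at 0.497 to 1.72 CPM. Counts were divided by each library's total, in Python 3.11.15 (numpy 2.4.6, scipy 1.17.1, pandas 2.3.3, matplotlib 3.10.9). miRNA rows of identical sequence, or with a perfect antisense overlap of at least 16 bases, were joined as sets. Bases 2 to 8 of the deposited sequence defined families, and arms were read from names. edgeR 4.0.16 in R 4.3.3 gave the common dispersion of an intercept-only fit (TMM, at least 10 counts in 2 libraries), with DESeq2 1.42.0 as an alternative. Steps were tested on simulated data. The libraries, lists and markers were chosen with earlier results of these data known. Named were the 20 highest miRNA rows, the 10 largest families, hairpins and isotypes, the 5 smallest isotypes, the most even and most one-sided hairpins, the most and least variable rows above 100 CPM, and all members of each marker list by their level. The rows of clusters, miR-410, the isotypes given per entry, the summing of partner rows, the first bases by row and the TMM values by library were chosen after the data were seen. Alternatives were other scalings, filters, seeds and denominators, partner rows counted once, and each library left out.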

Additional observations from a re-analysis of the deposited data

How the results depend on the processing

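Of 61 alternative values of 10 results, 40 stayed within 1 SD of the libraries, or within 1.5 times for a count, and 12 moved further. The other 9 belong to the coefficient of variation, which has no SD here. Partner rows mattered most. Summing them, chosen after the data were seen, lowered the miRNAs that hold 50% of miRNA counts from 14 to 9, and raised the let-7 total from 87932 to 106692 CPM and the miR-29 total from 75779 to 129463. The 5p share was 59.9% with partner rows left out and 57.6% without the most abundant entry. Counting only the highest of rows that share sequence gave a miRNA class share of 67.8% and a Gly-GCC total of 15015 CPM. The 2 mitochondrial rows then held 11.4% of tRNA counts. Hairpins with more 5p counts numbered 63 of 112 at a minimum of 1000 counts, against 113 of 212. Other denominators gave 147188 for let-7 when scaled to miRNA counts alone, and for Gly-GCC 152435 when scaled to tRNA counts alone and 5365 CPM per entry. The coefficient of variation ran from 0.179 to 0.388 with 1 library left out. It was 0.410 with no filter, 0.202 at 100 counts in 2 libraries, 0.364 with RLE scaling, 0.475 for miRNAs alone, 0.238 for tRNAs alone and 0.192 with DESeq2. Under TMM and RLE scaling the means of the let-7 and Gly-GCC totals moved by less than 1 SD, but their spread did not hold: the SD of let-7 went from 9786 CPM to 20433 and 21362, and that of Gly-GCC from 6929 to 101.3 and 1108. A let-7 seed of bases 2 to 7, and pooled counts for the number of leading miRNAs, left these values within 1 SD or 1.5 times. Leaving out each library kept the number of leading miRNAs and of hairpins with more 5p counts within 1.5 times. A mean of 3 libraries cannot move by 1 SD when 1 of them is left out. For the means this comparison could therefore not fail, and its values are among the 40 that stayed. No paired analysis was possible because only control libraries entered and no result comes from a test. Depth limits single rows under about 5 CPM in control 3, where 3 counts are 5.15 CPM.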
